A study of Mus musculus with 2 samples.

Results

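Ligands of the tumor necrosis factor (TNF) superfamily and some TNF family receptors, death receptors among them, were followed through tumor mononuclear phagocytes (TMPs) of the mouse. The 9 genes were taken by symbol from a set chosen with earlier results of these data known. They were the ligands Tnf, Tnfsf9, Tnfsf10, Tnfsf12, Tnfsf13 and Tnfsf13b and the receptors Fas, Tnfrsf1a and Tnfrsf1b, out of 27998 genes listed. The data were 1 droplet-based single-cell RNA library from Fcmr+/+ mice and 1 from Fcmr-/- mice. Both held MerTk+ CD64+ cells sorted from B16 melanoma tumors grown in C57Bl/6 animals, B16 being a transplantable mouse melanoma line. Fcmr, also called Toso, is described in the study as the putative receptor for soluble IgM. It was deleted in all cells of the Fcmr-/- mice, so a difference between the libraries need not arise in the phagocytes. Both groups carried the same tumor cells, were dissociated enzymatically by the same procedure and, per the methods of the study, came from littermates matched for sex, age and cage. Age and the number of mice pooled per library were not given in the sources used here.

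TNF superfamily ligands are mostly made as trimeric membrane proteins, and several are shed by proteases into soluble forms. Their receptors fall into those with an intracellular death domain, such as Fas and Tnfrsf1a, which can recruit caspase-8 or activate NF-kB, and those without one, such as Tnfrsf1b, which signal through TRAF adaptors. Macrophages are a major source of TNF in inflamed tissue, and they also use it: TNF acting on Tnfrsf1a induces NF-kB targets in the same cells.

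The promoter letters of Tnf, Tnfsf10 and Tnfrsf1b are shown because Tnf differed most between the libraries among the genes of at least 5 CPM with a RefSeq promoter entry, Tnfsf10 followed one interferon-rich cluster, and Tnfrsf1b differed most in another cluster. Of the 9 genes, 7 matched the RefSeq promoter table (GRCm38.p6), the others being Tnfsf9 and Tnfsf12. Each run below is the 250 bases before the annotated start, read 5′ to 3′ on the gene's strand, with matches to the searched motifs in capitals.
Tnf promoter, chr17:35202008-35202257, minus strand: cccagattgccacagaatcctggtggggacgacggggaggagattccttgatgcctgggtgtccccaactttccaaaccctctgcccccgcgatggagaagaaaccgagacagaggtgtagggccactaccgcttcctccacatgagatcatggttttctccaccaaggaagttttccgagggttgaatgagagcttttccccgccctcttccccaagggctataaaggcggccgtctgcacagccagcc
Tnfsf10 promoter, chr3:27316827-27317076, plus strand: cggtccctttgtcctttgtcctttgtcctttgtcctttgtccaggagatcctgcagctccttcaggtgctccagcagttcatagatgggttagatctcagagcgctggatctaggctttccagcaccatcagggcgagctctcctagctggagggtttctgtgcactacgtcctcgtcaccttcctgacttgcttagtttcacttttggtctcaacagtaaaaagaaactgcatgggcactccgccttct
Tnfrsf1b promoter, chr4:145246871-145247120, minus strand: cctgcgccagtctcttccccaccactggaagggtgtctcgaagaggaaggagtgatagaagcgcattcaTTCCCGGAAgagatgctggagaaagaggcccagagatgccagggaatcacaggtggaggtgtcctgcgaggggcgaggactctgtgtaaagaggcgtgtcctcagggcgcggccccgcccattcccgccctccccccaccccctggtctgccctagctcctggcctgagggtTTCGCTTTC
In a window of 300 bases, 250 before and 50 after the start, 6 motifs were searched on both strands. The interferon-stimulated core GAAANNGAA was present in 8.56% of the 32851 promoters of the table, the STAT motif TTCNNNGAA in 8.30%, the AP-1 motif TGANTCA in 7.81%, the EGR motif GCGNGGGCG in 5.55%, the CRE motif TGACGTCA in 1.79% and a kappaB motif of 10 letters in 8.46%. The Tnf and Tnfsf10 windows held none of the 6. The capitals in Tnfrsf1b mark TTCCCGGAA, a STAT motif that begins 181 bases before the start, and TTCGCTTTC, the interferon core read on the opposite strand, which begins 9 bases before it. The Fas window held 1 AP-1 and 1 STAT motif, that of Tnfrsf1a held 1 STAT motif, and that of Tnfsf13 held 1 AP-1 motif. For Tnfsf13b, an AP-1 motif lay in the windows of both annotated starts. The window of 1 of these starts also held the interferon core, as GAAAGTGAA, which begins 16 bases before that start. A match is a run of letters and was not tested as a binding site.

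After the limits on genes and mitochondrial UMIs (unique molecular identifiers, counts of captured messenger molecules), 6352 Fcmr+/+ and 7999 Fcmr-/- cells remained. They held 128408544 and 124630621 UMIs, with medians of 17973.5 and 12911 UMIs per cell, so Fcmr-/- cells were shallower. A level is given in CPM, the UMIs of a gene per 1000000 UMIs of the group of cells. Intervals are exact at 95% and cover counting error only: as each genotype has 1 library, mice could not be compared within a genotype, no test was made, and genotype, tumor and library cannot be told apart. Fcmr itself had 7 UMIs in the Fcmr+/+ and 6 in the Fcmr-/- library, too few to check the genotypes. Of the sort markers, Mertk had 62.8 CPM in Fcmr+/+ and 48.7 CPM in Fcmr-/- cells, and Fcgr1, which encodes CD64, had 250 and 394 CPM. Macrophage markers (9 genes) summed to 16452 and 14552 CPM. Of 10 T or NK cell markers 9 were found, all 9 higher in Fcmr-/-, summing to 2.30 and 17.1 CPM with Ncr1 at 0 in Fcmr+/+. The 6 melanoma markers summed to 40.6 and 64.1 CPM, all 6 higher in Fcmr-/-. Also higher in Fcmr-/- were 6 of 7 monocyte markers (382 and 583 CPM), 8 of 8 of dendritic cells (20.8 and 30.5 CPM), 5 of 5 of neutrophils (30.8 and 47.4 CPM, Ly6g at 0 in Fcmr+/+) and 4 of 4 of endothelium (6.43 and 11.9 CPM, Cldn5 at 0 in Fcmr+/+). B cell markers had 12.4 and 10.4 CPM, fibroblast markers 0.864 and 0.762 CPM, mast cell or basophil markers 3 and 7 UMIs, and cell division genes 475 and 414 CPM. Values were also computed without the T or NK and the melanoma marker cells, and the part of the other cell types in the values below was not tested. The libraries shared 73 cell barcodes.

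Tnf and Tnfsf9 were lower in Fcmr-/- TMPs, and the other members of at least 5 CPM were nearly level. Of the 9 genes, 6 reached 5 CPM in either library. Among these 6, 2 were lower by 1.5-fold or more in Fcmr-/- and 0 were higher, with 1 CPM added to each level. Over all 8701 genes that reached 5 CPM, 1.69% were lower and 2.4% higher by this rule. The median log2 ratio was -0.14 over the 6 genes, beside 0.00 over all genes. In the plot of levels by library, the ligands Tnf and Tnfsf9 are the ones whose points separate.

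**Figure D1:**
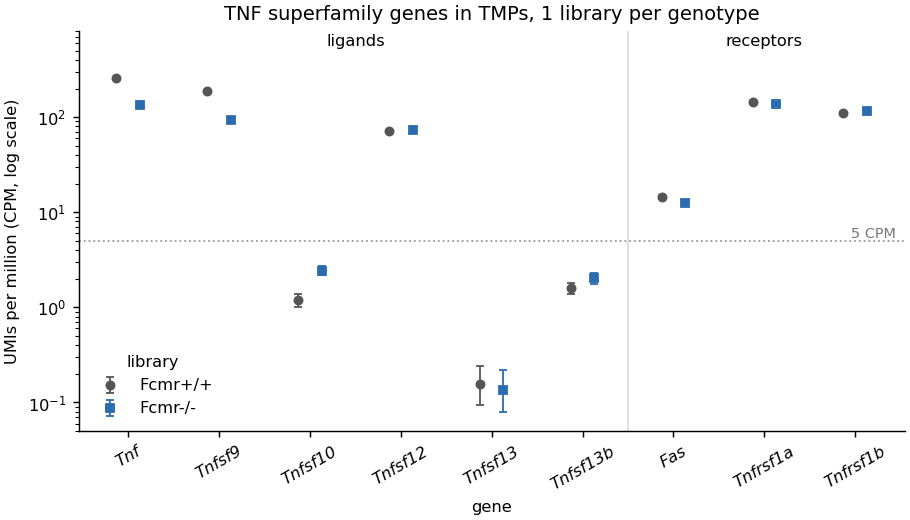
Level of each gene in CPM on a log scale in the Fcmr+/+ (circles) and Fcmr-/- (squares) library, with exact 95% Poisson intervals, which are narrower than the symbols for abundant genes; the dotted line marks 5 CPM. Tnf falls from 259 to 134 CPM and Tnfsf9 from 189 to 92.9 CPM, while Tnfsf12, Fas, Tnfrsf1a and Tnfrsf1b are almost unmoved.

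Tnf encodes the founding ligand, which binds Tnfrsf1a and Tnfrsf1b. It lies on the minus strand of chr17:35199381-35202007 (GRCm38). It had 33244 UMIs in the Fcmr+/+ library, 259 CPM (interval 256 to 262), and 16752 UMIs in the Fcmr-/- library, 134 CPM (132 to 136). The Fcmr-/- level was 1.93-fold lower (1.89 to 1.96), a log2 ratio of -0.94. Only 31 of the 8701 genes had a lower ratio.

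The share of cells with a Tnf UMI fell with the level. Since depth sets such shares, every cell was thinned to 6403 UMIs, which left 6280 Fcmr+/+ and 7354 Fcmr-/- cells and dropped 72 and 645 shallower ones. Then 53.6% of Fcmr+/+ cells (interval 52.4 to 54.9) and 36.8% of Fcmr-/- cells (35.7 to 37.9) had Tnf, beside 72.4% and 53.1% without thinning. Cells with at least 5 thinned Tnf UMIs made up 9.94% of the Fcmr+/+ and 4.81% of the Fcmr-/- library, and cells with at least 20 made up 0.366% and 0.190%. Among cells with Tnf, the mean was 3.02 UMIs per cell in Fcmr+/+ and 2.54 in Fcmr-/-. Fewer Tnf-positive cells and fewer UMIs in those cells thus both went with the lower level. The 10% of cells richest in Tnf held 50.7% of its thinned UMIs in Fcmr+/+ and 63.7% in Fcmr-/-. For background, the melanocyte gene Mlana, which phagocytes do not make, was seen in 3.20% and 3.41% of thinned cells, Pmel in 8.06% and 11.9%, and the T cell gene Cd3g in 0.0478% and 0.340%.

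Tnfsf9, the ligand of the T cell co-stimulatory receptor Tnfrsf9, lies on the plus strand of chr17:57105325-57107757. It had 24309 UMIs and 189 CPM (187 to 192) in Fcmr+/+ cells, against 11576 UMIs and 92.9 CPM (91.2 to 94.6) in Fcmr-/- cells. The level was 2.04-fold lower in Fcmr-/- (1.99 to 2.08), a log2 ratio of -1.02, with 23 genes of 8701 lower still. At equal depth 41.0% of Fcmr+/+ cells (39.8 to 42.2) and 27.1% of Fcmr-/- cells (26.0 to 28.1) carried a Tnfsf9 UMI, and 59.6% and 40.1% without thinning.

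Depth moved with both differences. All cells of both libraries were split into quintiles by UMIs per cell, from 5156 to 8801 in the first to 24932 to 79986 in the last. In the first quintile Tnf had 262 CPM in 816 Fcmr+/+ cells and 207 CPM in 2054 Fcmr-/- cells, a ratio of 0.790 (0.743 to 0.840). In the last quintile it had 272 CPM in 1744 cells and 111 CPM in 1127 cells, a ratio of 0.409 (0.395 to 0.423). The direction was thus the same at every depth, and the size was greater in deep cells. Tnfsf9 had 122 and 107 CPM in the first quintile, a ratio of 0.877 (0.803 to 0.959), and 209 and 84.9 CPM in the last, a ratio of 0.406 (0.390 to 0.422). The mean log2 ratio over the quintiles was -0.82 for Tnf and -0.77 for Tnfsf9. The part of depth in the library-wide difference was not tested further.

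Of 13 genes in a dissociation and stress list, all of at least 5 CPM, 2 were lower and 0 higher in Fcmr-/- by the 1.5-fold rule, with a median log2 ratio of -0.24. Over all 8701 genes of at least 5 CPM, 1.69% were lower and 2.4% higher. The transcription factor Egr1 had 201 CPM in Fcmr+/+ and 72.8 CPM in Fcmr-/- cells, and Jun, a subunit of AP-1, had 483 and 296 CPM, whereas Fos, its partner, was level at 1240 and 1249 CPM. The heat shock genes Hspa1a and Hspa1b had log2 ratios of 0.08 and 0.33. When cells were split into quintiles by their summed share of this list, Tnf had 145 CPM in Fcmr+/+ and 79.3 CPM in Fcmr-/- cells of the lowest quintile and 379 and 225 CPM in the highest. Tnf thus rose with the list in both libraries and was lower in Fcmr-/- in all 5 quintiles. Egr1 was also lower in Fcmr-/- in all 5, with 37.0 and 16.8 CPM in the lowest quintile and 495 and 245 CPM in the highest. The split thus did not level Egr1 between the libraries, and the part of stress in the Tnf difference was not tested. Tnfsf9 had 140 and 58.2 CPM in the lowest quintile and 203 and 136 CPM in the highest. The plot by quintiles shows the Fcmr-/- line under the Fcmr+/+ line in all panels.

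**Figure D2:**
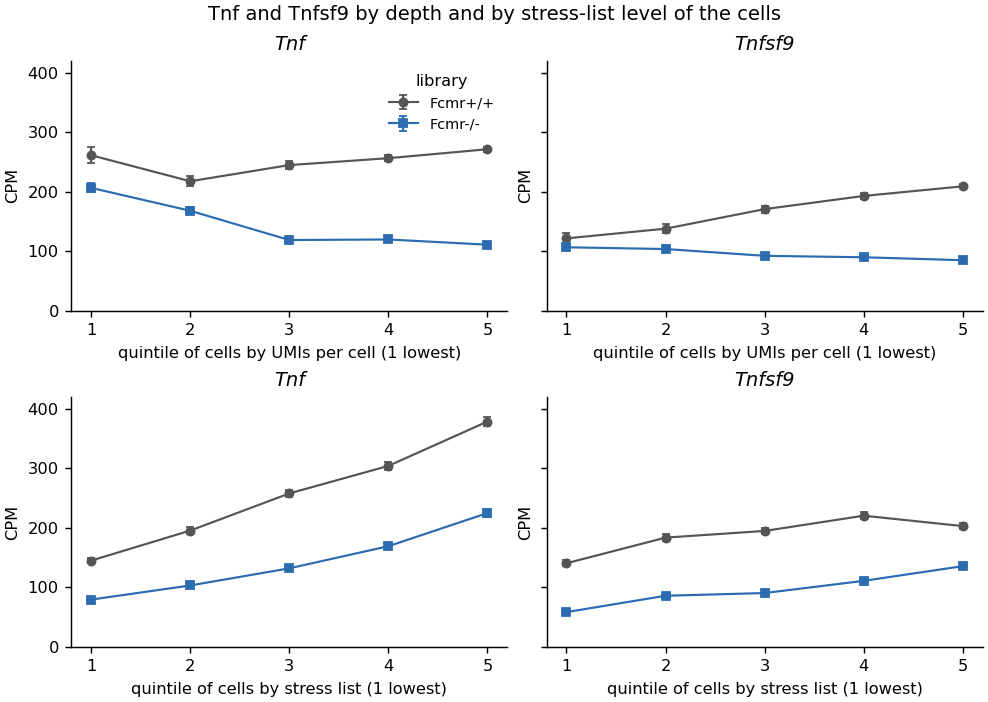
Tnf (left) and Tnfsf9 (right) in CPM within quintiles of all cells by UMIs per cell (top) and by the share of UMIs in the dissociation and stress list (bottom), for Fcmr+/+ (circles) and Fcmr-/- (squares), with exact 95% Poisson intervals. The Tnf lines part from 262 against 207 CPM in the shallowest quintile to 272 against 111 CPM in the deepest.

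The remaining ligands split into 1 well measured gene and 3 scarce ones. Tnfsf12, which encodes TWEAK, the ligand of Tnfrsf12a, had 71.8 CPM (70.4 to 73.3) in Fcmr+/+ and 73.3 CPM (71.8 to 74.8) in Fcmr-/- cells, a ratio of 1.02 (0.991 to 1.05). It was found in 35.2% and 36.1% of thinned cells. The gene lies on the minus strand of chr11:69686250-69695849, and 48.3% of its exon bases are shared with the read-through gene Tnfsfm13. Its counts could have been affected by this overlap. Tnfsfm13 itself had 3.43 and 3.27 CPM.

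Tnfsf10, which encodes TRAIL, had 152 UMIs in the Fcmr+/+ and 303 UMIs in the Fcmr-/- library. These were 1.18 CPM (1.00 to 1.39) and 2.43 CPM (2.17 to 2.72), a ratio of 2.05 (1.68 to 2.51). It did not reach 5 CPM in either library, so it is not among the genes counted above. Thinned cells with a Tnfsf10 UMI made up 0.828% and 1.47%. Tnfsf13b, which encodes the B cell survival factor BAFF, had 204 UMIs and 1.59 CPM (1.38 to 1.82) against 252 UMIs and 2.02 CPM (1.78 to 2.29), a ratio of 1.27 (1.05 to 1.54). Its share of thinned cells was 1.00% and 1.01%. Tnfsf13, which encodes APRIL, had 20 and 17 UMIs, or 0.156 and 0.136 CPM, and 60.0% of its exon bases on chr11:69682846-69685784 are shared with Tnfsfm13. Over whole libraries the shares of these 3 genes lay under those of Mlana and are not read as shares of expressing cells.

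The 3 receptors differed little. Fas, the receptor of Fas ligand, on chr19:34290666-34327772, had 14.5 CPM (13.8 to 15.1) in Fcmr+/+ and 12.5 CPM (11.9 to 13.2) in Fcmr-/- cells, a ratio of 0.866 (0.809 to 0.926). Its share of thinned cells, 8.84% and 7.47%, was of the size of that of Pmel, and is therefore not read as the share of cells that express it. Tnfrsf1a, the widely expressed TNF receptor with a death domain, on chr6:125349362-125362484, had 145 CPM (143 to 148) and 136 CPM (134 to 138), a ratio of 0.935 (0.916 to 0.955). It was seen in 58.9% and 56.0% of thinned cells. Tnfrsf1b, the second TNF receptor, on chr4:145213463-145246870, had 112 CPM (110 to 114) and 117 CPM (115 to 119), a ratio of 1.04 (1.02 to 1.07). Its share was 48.9% and 48.5%, with 50 Fcmr+/+ and 107 Fcmr-/- cells at 5 or more thinned UMIs.

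Cells of both libraries were clustered together with the members and the other TNF ligands and receptors kept out of the variable genes, so that the members did not shape the clusters. This gave 11 clusters, numbered by size and described by the genes with the highest fold over all other cells. Cluster 1 was led by Ccl17 and Il1r2, cluster 3 by Cxcl3, Ppbp and Areg, cluster 4 by Tfrc, Cnrip1 and Gas6, and cluster 7 by Acp5 and Apoe. Cluster 5 was led by the cell division genes Cenpf and Nusap1, cluster 8 by Mfge8 and Plpp3, and cluster 11 by Adm and Pdgfa, with the melanocyte gene Dct among its top 5. Cluster 6 was led by the hemoglobin genes Hbb-bs and Hba-a1, which phagocytes do not make, and then by Rhov, Adm and Hspb1. Its median was 8968.5 UMIs per cell. Cluster 9 was led by the type I interferon-induced genes Rsad2 and Ifit1bl1. Clusters 2 (Ly6c2, Ly6a) and 10 (Iigp1, Serpina3g, Cxcl9) had 94.7% and 96.1% of their cells from the Fcmr-/- library. Cluster 10 had 33 Fcmr+/+ cells, fewer than the 50 required, and the libraries were compared in the other 10.

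Tnf was lower in Fcmr-/- cells in 9 of these 10 clusters and Tnfsf9 in all 10. Over the 61 pairs of a member and a compared cluster with at least 5 CPM, 14 were lower and 1 was higher by 1.5-fold or more in Fcmr-/-. Among all 85646 such pairs of a gene and a cluster, 3.08% were lower and 4.06% higher. Of the 14 lower pairs 8 were of Tnf and 6 of Tnfsf9, and the higher pair was Tnfrsf1b in cluster 6. The clusters share their 2 libraries and are not replicates of the difference.

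Tnf ranged in the Fcmr+/+ library from 83.4 CPM in cluster 7 (77.7 to 89.4) to 386 CPM in the interferon-rich cluster 9 (365 to 407), with a median of 274 CPM over clusters. In the Fcmr-/- library it ranged from 43.0 CPM in cluster 7 (37.6 to 48.9) to 303 CPM in cluster 3 (293 to 313), with a median of 134 CPM. Clusters 9 and 3 were thus at the top in 1 library each, while cluster 7 was at the bottom in both. By ratio, the largest difference was in the dividing cells of cluster 5, with 290 CPM (283 to 297) in Fcmr+/+ and 120 CPM (115 to 125) in Fcmr-/-, a ratio of 0.413 (0.394 to 0.434). In cluster 4 the levels were 298 and 147 CPM, in cluster 8 154 and 71.6 CPM, and in cluster 1 229 and 121 CPM. The exception was cluster 3, led by Cxcl3, where Tnf had 282 CPM (274 to 291) in Fcmr+/+ and 303 CPM in Fcmr-/- cells, a ratio of 1.07 (1.03 to 1.12). That interval leaves out the spread of Tnf UMIs between cells, and the difference between cluster 3 and the others has no replicate check. With other settings of the clustering Tnf was lower in 6 of 6, 13 of 13, 9 of 10 and 9 of 9 clusters, so the exception depended on the partition. Median UMIs per cell in cluster 3 were 16989.5 in Fcmr+/+ and 11238 in Fcmr-/- cells, and the part of depth there was not tested. In the Fcmr-/- library Tnf stood at 118 CPM in cluster 2 and 81.9 CPM in cluster 10, the clusters found almost only there.

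Tnfsf9 was highest in cluster 3 and lowest in cluster 7 in both libraries. In cluster 3 it had 351 CPM (341 to 361) in Fcmr+/+ and 237 CPM (228 to 246) in Fcmr-/- cells, so there the levels of Tnf and Tnfsf9 went apart. In cluster 7 it had 44.3 CPM (40.1 to 48.7) and 26.5 CPM (22.4 to 31.3). By ratio, the smallest difference was in cluster 2, 119 against 92.6 CPM with 91 Fcmr+/+ cells, and the largest in cluster 8, 110 against 37.2 CPM, a ratio of 0.338 (0.297 to 0.384).

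**Figure D3:**
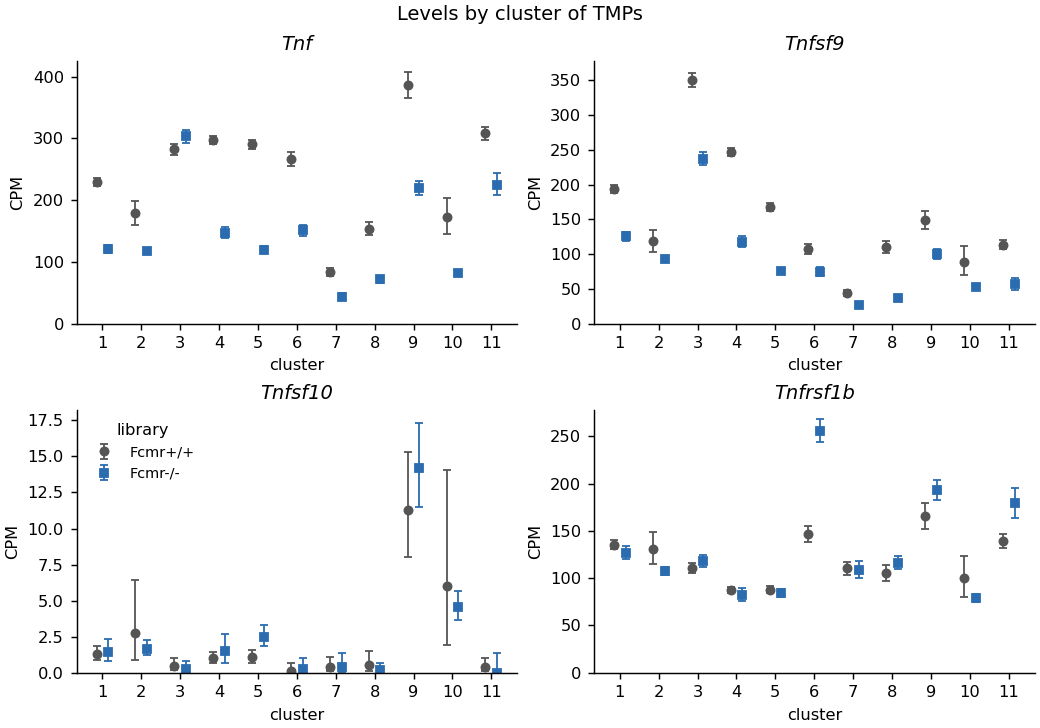
Level in CPM of Tnf, Tnfsf9, Tnfsf10 and Tnfrsf1b in each of the 11 clusters, for the Fcmr+/+ (circles) and Fcmr-/- (squares) library, with exact 95% Poisson intervals. Tnf and Tnfsf9 squares lie under the circles except for Tnf in cluster 3, Tnfsf10 stands out in cluster 9, and Tnfrsf1b parts most in cluster 6, 147 against 256 CPM.

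Tnfsf10 followed the interferon-rich cells. In cluster 9 it had 40 UMIs and 11.3 CPM (8.05 to 15.3) in Fcmr+/+ and 96 UMIs and 14.2 CPM (11.5 to 17.3) in Fcmr-/- cells. In cluster 10 it had 4.58 CPM (3.64 to 5.69) in Fcmr-/- cells. The 33 Fcmr+/+ cells there had 5 UMIs and 6.02 CPM (1.96 to 14.1). In the other 9 clusters Tnfsf10 was at or below 2.76 CPM in each library. Thinned cells with a UMI, both libraries pooled, were 7.88% in cluster 9 (6.08 to 10.0), 3.03% in cluster 10 and between 0.0853% and 1.33% elsewhere. The interval covers counting error only, and no replicate exists to check the spread between clusters. Cluster 9 held 38.1% of all Tnfsf10-positive thinned cells but 5.68% of all thinned cells. Cluster 9 made up 4.03% of Fcmr+/+ and 8.06% of Fcmr-/- cells, and cluster 10 made up 0.520% and 10.1%. Within clusters the ratio was higher in 5 and lower in 5, most of them on few UMIs. The interval lay above 1 in cluster 5, with 23 and 46 UMIs and a ratio of 2.34 (1.39 to 4.05), and held 1 in the other 9. The mean log2 ratio was 0.00 over clusters against 0.65 over all cells. These log2 ratios have 1 CPM added, which shrinks them where Tnfsf10 was near or below 1 CPM, as in most clusters. The part of cluster shares in the library-wide difference was not tested.

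Tnfrsf1b was highest in clusters 6, 9 and 11, with cluster 9 at the top in Fcmr+/+ and cluster 6 in Fcmr-/-. In cluster 6 it had 147 CPM (138 to 155) in Fcmr+/+ and 256 CPM (244 to 268) in Fcmr-/- cells, a ratio of 1.75 (1.62 to 1.88). In cluster 9 it had 166 and 193 CPM, and in cluster 11 139 and 179 CPM. In cluster 2 it went the other way, with 131 CPM (115 to 149) in 91 Fcmr+/+ cells and 108 CPM (104 to 112) in 1641 Fcmr-/- cells, a ratio of 0.820 (0.718 to 0.940). Median UMIs per cell in cluster 6 were 10653.5 in Fcmr+/+ and 7944 in Fcmr-/- cells. Tnfrsf1a was lower in Fcmr-/- in 8 of 10 clusters, with ratios from 0.778 to 1.05, and was lowest in cluster 6 at 91.7 CPM over both libraries.

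Tnfsf12 was higher in Fcmr-/- in 8 of 10 clusters but by small amounts, with ratios from 0.935 to 1.24. It was highest in cluster 8, at 105 CPM over both libraries, and lowest in cluster 10, at 53.5 CPM. Fas ranged from 9.55 CPM in cluster 8 to 18.2 CPM in cluster 2 in Fcmr+/+ and from 7.64 CPM in cluster 8 to 15.2 CPM in cluster 9 in Fcmr-/-, over the 10 compared clusters. Its share of thinned cells, both libraries pooled, lay between 5.23% and 8.96% in all 11 clusters. Tnfsf13b was lower in Fcmr-/- in 8 of 10 clusters and higher in 2, most of them on few UMIs. In cluster 7 it had 40 UMIs and 4.26 CPM (3.04 to 5.79) in Fcmr+/+ cells. The Fcmr-/- cells there had 6 UMIs and 1.12 CPM, a ratio of 0.264 (0.0913 to 0.625). In cluster 5 the ratio was 2.30 (1.48 to 3.64), and in the other compared clusters the interval held 1. In cluster 10 Tnfsf13b had 69 UMIs and 3.90 CPM (3.04 to 4.94) in Fcmr-/- cells. There the 33 Fcmr+/+ cells had 0 UMIs, with an exact interval of 0 to 4.44 CPM, so a difference was not detectable at this depth. Tnfsf13 had at most 5 UMIs in any cluster of either library.

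Co-expression was read from thinned cells as the number with both genes over the number expected from each gene's share. Of the 36 pairs of members, Tnf and Tnfsf9 departed most from 1 among the 15 pairs of the 6 genes of at least 5 CPM, in both libraries. In Fcmr+/+ cells 1724 had both, 1.249 times the expected number (1.19 to 1.31), and in Fcmr-/- cells 1038 had both, 1.42 times (1.33 to 1.51). Of Tnf-positive cells, 51.2% also had Tnfsf9 in Fcmr+/+ and 38.4% in Fcmr-/-, beside 29.2% and 20.5% of Tnf-negative cells. Expected numbers taken within clusters gave 1.19 and 1.33, and cells without thinning gave 1.16 and 1.27. The expected numbers were 1380 and 732 cells. The ratio of observed to expected has more room to rise where both shares are lower, as they were in Fcmr-/-.

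Tnf and its receptors were found together at close to the number their shares give, between 0.975 and 1.06 times it. Tnf and Tnfrsf1a gave 1.00 (0.957 to 1.05) in Fcmr+/+ and 0.975 (0.926 to 1.03) in Fcmr-/- cells. Tnf and Tnfrsf1b gave 1.04 (0.989 to 1.09) and 1.06 (1.01 to 1.12), and both receptors together 1.00 (0.956 to 1.05) and 0.970 (0.927 to 1.01). Tnfrsf1a was seen in 58.9% of Tnf-positive and 58.8% of Tnf-negative Fcmr+/+ cells, and in 54.6% and 56.8% in Fcmr-/-. Tnfrsf1b was seen in 50.7% and 46.8% in Fcmr+/+ and in 51.4% and 46.8% in Fcmr-/-. Of cells with and without Tnfrsf1a, 49.0% and 48.7% had Tnfrsf1b in Fcmr+/+, and 47.0% and 50.3% in Fcmr-/-. Fas gave 1.02 and 1.08 with Tnf, both with intervals that held 1. These intervals cover the counting error of the observed number alone. An interval that holds 1 therefore does not show that the genes of a pair are independent.

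**Figure D4:**
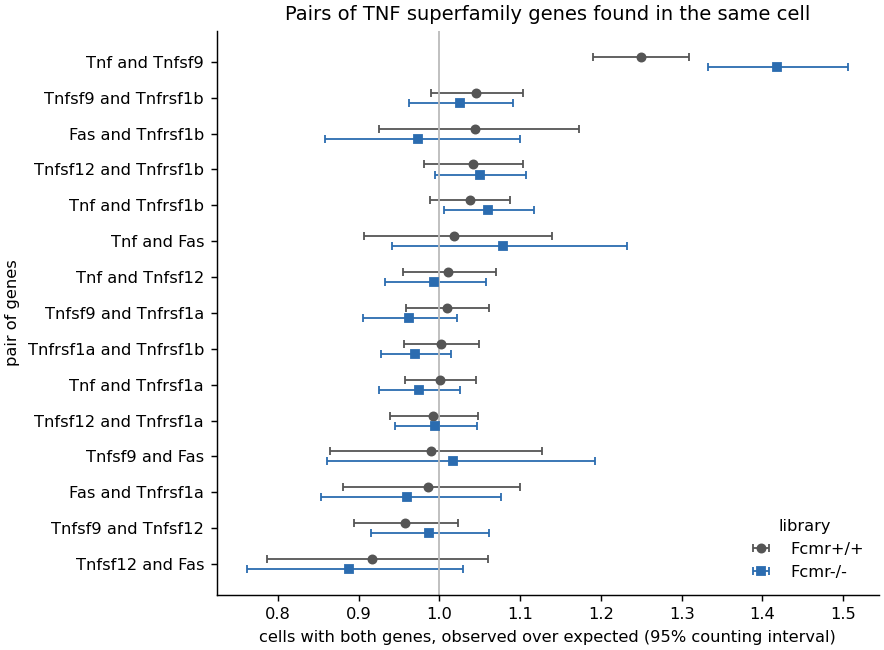
Cells with both genes of a pair over the number expected from the shares of each, for the 15 pairs of the 6 genes of at least 5 CPM, in Fcmr+/+ (circles) and Fcmr-/- (squares) cells thinned to 6403 UMIs, with exact 95% Poisson intervals of the observed number. Tnf with Tnfsf9 is set apart at 1.249 and 1.42, and the other pairs lie near 1.

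The genes most alike to each member were sought by Pearson's r of log2(CPM + 1) over 21 groups of at least 50 cells, each a cluster in 1 library, among 5255 genes of at least 20 CPM. These groups come from 2 libraries, so a difference between the libraries enters r, which is a description. For Tnf they were Tnfaip3 (r = 0.907), an NF-kB-induced brake on TNF signaling, Cflar (0.888), the caspase-8 inhibitor, and the metallothionein Mt2 (0.830). Tnfaip3 had 314 CPM in Fcmr+/+ and 247 CPM in Fcmr-/-, Cflar 193 and 146 CPM, and Mt2 445 and 121 CPM. For Tnfsf9 they were Marcksl1 (0.885), Noct (0.885) and Nfkbiz (0.879), for Tnfrsf1b March7 (0.929), Mcl1 (0.919) and Npepps (0.917), and for Tnfrsf1a Scamp2 (0.951), Acaa1a (0.918) and Itga4 (0.896). For Tnfsf12 they were Tm2d1, Lat2 and Aph1c, and for Fas Tgfbi, Pdk3 and Ms4a6b, with r between 0.759 and 0.882. Tnf was also compared cell by cell within each library, by r of log2(thinned UMIs + 1). Nfkbia (r = 0.384 in Fcmr+/+ and 0.344 in Fcmr-/-), Cxcl2 (0.369 and 0.321), Nfkbiz and Tnfsf9 were among its top 5 in both. Tnfaip3 was among them in Fcmr+/+ only, and Cflar and Mt2 in neither library.

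Partners of the members were mostly scarce or level. Tnfrsf9, the receptor of Tnfsf9, went against its ligand, with 10.8 CPM (10.2 to 11.4) in Fcmr+/+ and 17.0 CPM (16.3 to 17.7) in Fcmr-/-, a ratio of 1.58 (1.47 to 1.69). It was the 1 gene higher by 1.5-fold among the 10 further TNF receptors of at least 5 CPM, out of 25 listed, and 0 were lower. The shares over all 8701 genes were 2.4% higher and 1.69% lower. Since activated T and NK cells make Tnfrsf9 and their markers were higher in Fcmr-/-, cells with such a marker were taken out, 139 Fcmr+/+ and 213 Fcmr-/- cells. Tnfrsf9 then had 10.1 and 16.2 CPM, and Tnf and Tnfsf9 kept log2 ratios of -0.95 and -1.02. Fasl, the ligand of Fas, had 5 and 25 UMIs, of which 4 and all 25 lay in those T or NK marker cells. Lta, a further ligand of Tnfrsf1a and Tnfrsf1b, had 10 and 6 UMIs.

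The TRAIL death receptor Tnfrsf10b had 43 UMIs in the Fcmr+/+ and 63 in the Fcmr-/- library, and its decoys Tnfrsf22 and Tnfrsf23 had 1.95 and 1.75 CPM and 10.9 and 10.4 CPM. The TWEAK receptor Tnfrsf12a had 15.3 CPM (14.7 to 16.03) and 10.6 CPM (10.0 to 11.2), a ratio of 0.691 that fell short of the 1.5-fold rule with 1 CPM added. Of the receptors of BAFF and APRIL, Tnfrsf13b was level at 36.2 and 36.4 CPM, while Tnfrsf17 had 81 and 43 UMIs and Tnfrsf13c 4 and 8. Of 12 further ligands only Tnfsf14 reached 5 CPM, with 5.84 CPM in Fcmr+/+ and 4.35 CPM in Fcmr-/-. Tnfsf15, the ligand of Tnfrsf25, had 115 UMIs in Fcmr+/+ and 316 in Fcmr-/-, a ratio of 2.83 (2.28 to 3.54) under 5 CPM, with 3 and 5 of those UMIs in T or NK marker cells.

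Downstream of the receptors the lists were nearly flat. By the 1.5-fold rule, 2.4% of all 8701 genes were higher and 1.69% lower. Of 23 measured genes of receptor-proximal signaling, such as Tradd, Ripk1 and the TRAF adaptors, 0 were higher and 0 lower, with a median log2 ratio of 0.02. Of 20 death effectors and brakes 0 were higher and 0 lower, with a median of 0.14. In that list the apical caspase Casp8 had 70.9 and 78.4 CPM, Mlkl, the necroptosis effector, 15.4 and 22.4 CPM, and Cflar a log2 ratio of -0.40. Of 8 measured genes of ligand shedding 0 passed in either direction, and Adam17, the protease that releases TNF from the membrane, had 81.2 CPM in Fcmr+/+ and 96.0 CPM in Fcmr-/-. Of 10 genes that control the Tnf messenger, such as Zfp36, also 0 passed.

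Among 27 measured NF-kB subunits and targets 2 were higher and 1 was lower, with a median log2 ratio of -0.07. The adhesion molecule Icam1 had 68.1 CPM in Fcmr+/+ and 37.5 CPM in Fcmr-/-, a ratio of 0.550 (0.531 to 0.570). The prostaglandin synthase Ptgs2 went the other way with 226 and 423 CPM, a ratio of 1.87 (1.84 to 1.90), as did the survival gene Bcl2a1d with 65.3 and 101 CPM, though Bcl2a1d shares reads with near-identical paralogs. The chemokines Ccl3, Ccl4, Cxcl1 and Cxcl2 lay between log2 ratios of -0.14 and 0.02. The interleukin Il1b had 1645 and 1953 CPM, and Il6, a cytokine of the same response, 12.4 and 8.28 CPM.

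Over whole libraries the interferon response list moved opposite to Tnf. Between clusters, Tnf was not low wherever interferon genes led. In the interferon-rich cluster 9 Tnf had 386 CPM in Fcmr+/+ and 220 CPM in Fcmr-/- cells. These levels lay above its medians of 274 and 134 CPM over compared clusters. In cluster 10 it had 81.9 CPM in Fcmr-/- cells. Tnf was still lower in Fcmr-/- within cluster 9, and the list is not compared between the libraries within clusters here. Of the 20 genes of the list, all of at least 5 CPM, 13 were higher in Fcmr-/- and 0 lower, with a median log2 ratio of 0.84. Over all 8701 genes of at least 5 CPM, 2.4% were higher and 1.69% lower. The rest of the list stayed within 1.5-fold, such as Ifit1 with 74.8 and 67.4 CPM. Iigp1 had 3.19 and 72.6 CPM, Cxcl9 14.5 and 186 CPM, Gbp4 2.24 and 29.5 CPM, Gbp2 21.4 and 139 CPM and Irf7 69.7 and 140 CPM. These genes were known to differ between the libraries when the list was made, so their direction is no independent evidence. In the plot of lists, the median of this list lies to the right of the medians of all others, though single genes overlap. Tnf and Tnfsf9 lie to the left of nearly all genes shown.

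**Figure D5:**
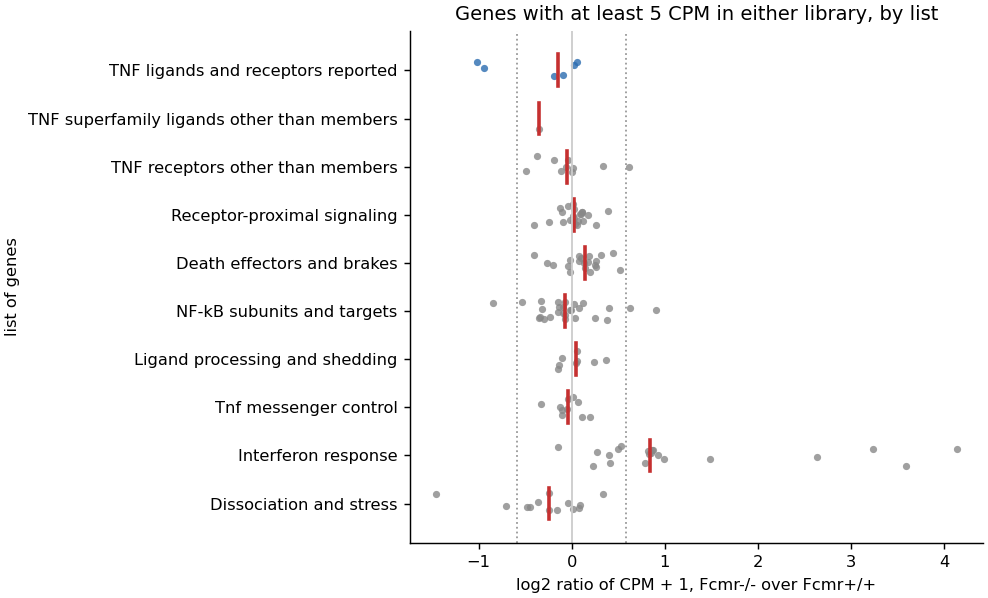
Log2 ratio of CPM + 1, Fcmr-/- over Fcmr+/+, of each gene of at least 5 CPM in either library, by list; red bars are medians and dotted lines mark 1.5-fold. Tnf and Tnfsf9 are the leftmost blue points at -0.94 and -1.02, most lists center near 0, and the interferon list has a median of 0.84.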

How the data were processed

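Single-cell libraries were prepared with a 10X Genomics Chromium 3′ kit from sorted MerTk+ CD64+ TMPs, 1 library per genotype. Deposited values are unnormalized UMI counts in a matrix of genes by cells, which the authors obtained by running Cell Ranger against GRCm38. They applied no filter apart from that program's calling of cells. Counts were not divided by gene length, and levels of different genes are not ranked against each other.

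Cells with 200 to 7000 genes and at most 30% mitochondrial UMIs were kept, as in the study. UMIs were summed over cells, scaled to CPM, and compared as log2 ratios with 1 CPM added, over genes of at least 5 CPM. Poisson, Clopper-Pearson and conditional binomial intervals are exact at 95%. Clustering used Seurat 5.3.0 in R 4.3.3 (10 principal components, resolution 0.8), with 12 TNF family genes taken out of 1336 variable genes. Other steps used Python 3.11.15, numpy 2.4.6 and scipy 1.17.1, and were tested on simulated data. No doublet caller was run: the limit of 7000 genes stood in, and an alternative left out the 5% of cells with the most UMIs. Coordinates of genes come from GENCODE release M21 (GRCm38). No replicate exists, so no test was made.

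All 9 members are named, with direct ligand or receptor partners, the listed genes of at least 20 CPM and 1.5-fold (up to 6 per list) and the 3 genes most alike to each member. A gene that this rule names and the text does not is not reported here. Values of further listed genes that were level are examples chosen after they were seen. Members and lists were chosen with earlier results of these data known.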

Additional observations from a re-analysis of the deposited data

Results flagged for a closer look

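In cluster 3, led by Cxcl3, Ppbp and Areg, Tnf had a ratio of Fcmr-/- to Fcmr+/+ of 1.07, on the other side of 1 from the 0.519 of all cells. In cluster 2, of which 94.7% of cells came from the Fcmr-/- library, Tnfrsf1b had a ratio of 0.820, against 1.04 over all cells. In both cases the counting interval of the cluster excluded 1, but it leaves out the spread of UMIs between cells. In thinned cells of the whole libraries, the variance over the mean of Tnf was 4.90 in Fcmr+/+ and 5.79 in Fcmr-/-. For Tnfrsf1b it was 1.36 and 1.68, and counting error alone gives 1. The difference from the other clusters was not tested, as each genotype has 1 library.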

How the results depend on the processing

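Tnf and Tnfsf9 were lower in Fcmr-/- under all 16 alternatives of scaling, cells and pooling, with log2 ratios from -0.95 to -0.72 for Tnf and from -1.03 to -0.77 for Tnfsf9. With no minimum of CPM, Tnfsf10 was added and 1 member was higher by 1.5-fold. At a fold of 2 with 1 CPM added, 1 member (Tnfsf9) was lower, and the other alternatives left the count of 2 lower and 0 higher. Fas, Tnfrsf1a, Tnfsf10 and Tnfsf12 also kept their direction under all 16. Tnfsf10 went to 0.00 as a mean within clusters, where the added 1 CPM shrinks the ratios of so scarce a gene. Tnfrsf1b kept it under 15, with -0.01 within quintiles of depth, Tnfsf13 under 13 and Tnfsf13b under 12 (-0.24 to 0.33). Splits by depth and by the stress list were chosen after seeing the data. Tnf was lower in 6 of 6 compared clusters at a resolution of 0.4, in 13 of 13 at 1.2, in 9 of 10 with all variable genes and in 9 of 9 with 20 principal components, so 3 of these 4 clusterings had no cluster with more Tnf in Fcmr-/-. Tnfsf9 was lower in 6 of 6, 11 of 13, 9 of 10 and 9 of 9. Tnfsf13 is limited by its 20 and 17 UMIs, and 60.0% of its exon bases are shared with Tnfsfm13. All values rest on 1 library per genotype. No paired analysis was possible because each genotype has 1 library.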
